A study of Mus musculus with 2 samples.

Results

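The genes described here are 9 members of the prostaglandin pathway of mouse skin: the cyclooxygenases *Ptgs1* and *Ptgs2*, the terminal synthases *Ptges*, *Ptgis* and *Ptgds*, the breakdown enzymes *Hpgd* and *Akr1c18*, and the receptors *Ptger3* and *Ptger4*. They were chosen by symbol, and each matched 1 of the 27998 genes in the count matrices. Unique molecular identifiers (UMIs), each marking 1 captured transcript molecule, were counted by lineage and library, and within fibroblasts by the detection of *Areg*, which encodes the growth factor amphiregulin, and *Agtr2*, which encodes an angiotensin receptor. In the GENCODE vM21 annotation of GRCm38, 4 of the genes lie on chromosome 2: *Ptgds* at chr2:25466709-25470046 (minus strand), *Ptges* at chr2:30889471-30929863 (minus), *Ptgs1* at chr2:36230426-36252272 (plus) and *Ptgis* at chr2:167191805-167240604 (minus). *Ptgs2* is at chr1:150100031-150108227 (plus), *Ptger3* at chr3:157566892-157645888 (plus) and *Ptger4* at chr15:5206661-5244187 (minus). *Hpgd* is at chr8:56294585-56321043 (plus) and *Akr1c18* at chr13:4132615-4150654 (minus). Over all cells the counts ran from 106 UMIs of *Ptgds* to 1839 UMIs of *Ptgs2*.

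The study asked how Hedgehog (Hh) activation in wound dermis changes dermal cells, using single-cell RNA sequencing of Tomato-positive cells sorted from the dermis of healed skin wounds. The control library came from SM22rtTA; tetO-Cre; R26-Tomato mice and the SM22-SmoM2 library from SM22rtTA; tetO-Cre; R26-SmoM2/Tomato mice, aged 4 to 5 weeks. In both genotypes the SM22α promoter, active in smooth muscle and wound myofibroblasts, drives the doxycycline-dependent activator rtTA, which switches on Cre. Cre then switches on the red reporter Tomato and, in SM22-SmoM2 mice alone, SmoM2, a constitutively active form of the Hh transducer Smoothened. All mice received doxycycline in chow (20 g/kg) from day 1 after wounding until the wounds were taken, 3 days after re-epithelialization was complete. Each library pooled wounds of several mice and there was 1 library per genotype, so no difference between genotypes has a replicate check, and all intervals are 95% and cover counting error only.

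Prostaglandins are short-lived lipid signals made from arachidonic acid, which phospholipases release from membranes. Cyclooxygenases turn arachidonic acid into prostaglandin H2, and terminal synthases convert this into prostaglandin E2, prostacyclin, prostaglandin D2 and others, which act on G protein-coupled receptors of nearby cells until they are taken up and oxidised. In skin these lipids are known for roles in inflammation, blood flow and wound repair.

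After filtering, 2856 control cells and 1792 SM22-SmoM2 cells remained, with medians of 8607.5 and 8837.5 UMIs per cell. Fibroblasts numbered 1097 in control and 1099 in SM22-SmoM2, endothelial cells 701 and 270, Schwann cells 679 and 294, muscle or mural cells 274 and 94, and immune cells 82 and 33. Defining markers stood in the lineages named for them: *Pdgfra* was at 78.2 and 101 CPM in fibroblasts, *Pecam1* at 987 and 811 CPM in endothelial cells, and *Ptprc* at 138 and 112 CPM in immune cells, against 0.35 and 0.72 CPM for *Ptprc* in fibroblasts. These markers were among those used to name the lineages, so their place is not a separate check. CPM are the UMIs of a gene per 1000000 UMIs summed over all cells of a lineage in 1 library. The Hh targets *Ptch1* and *Gli1* were at 12.1 and 6.05 CPM in control fibroblasts and at 147 and 33.1 CPM in SM22-SmoM2 fibroblasts, the direction the genotypes name.

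*Ptgs1* encodes the constitutive cyclooxygenase (COX-1). Its level was highest in endothelial cells, at 64.9 CPM in control (532 UMIs) and 56.8 CPM in SM22-SmoM2 (135 UMIs). Control fibroblasts followed at 30.9 CPM, while SM22-SmoM2 fibroblasts held 2.0 CPM. The remaining 3 lineages named above were under 10 CPM, with Schwann cells lowest at 0.85 and 0.99 CPM.

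*Ptgs2* encodes the inducible cyclooxygenase (COX-2). It was detected mainly in immune cells, at 92.0 and 123 CPM in control and SM22-SmoM2, and in fibroblasts, at 63.4 and 61.9 CPM. Endothelial and Schwann cells lay between 1.83 and 4.20 CPM. Mural cells held 0 UMIs in control and 5 UMIs, all in 1 cell, in SM22-SmoM2. In both libraries immune cells were highest and fibroblasts next, and fibroblasts held 90.2% of the *Ptgs2* UMIs of control and 92.0% of those of SM22-SmoM2, from 47.2% and 70.1% of all UMIs.

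The 250 bases before the annotated starts of both cyclooxygenase genes are given because both genes serve the same enzymatic step but were highest in different lineages (RefSeq sequence, GRCm38.p6, plus strand, read 5′ to 3′). The *Ptgs1* stretch is chr2:36230176-36230425 with 48% G and C, and the *Ptgs2* stretch is chr1:150099781-150100030 with 61.6%, against a median of 52.4% over all promoter windows. Neither stretch held any of the motifs searched, so no base is in capitals. Matches in *Ptgs2* lay after its annotated start, outside this stretch, and are given below. Where transcription starts in these cells was not measured, so before and after refer to the annotation alone.
Ptgs1: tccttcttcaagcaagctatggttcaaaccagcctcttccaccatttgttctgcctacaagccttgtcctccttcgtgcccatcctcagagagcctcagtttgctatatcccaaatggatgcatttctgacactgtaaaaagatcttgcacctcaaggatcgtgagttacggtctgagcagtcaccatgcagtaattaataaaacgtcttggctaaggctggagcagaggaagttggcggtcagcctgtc
Ptgs2: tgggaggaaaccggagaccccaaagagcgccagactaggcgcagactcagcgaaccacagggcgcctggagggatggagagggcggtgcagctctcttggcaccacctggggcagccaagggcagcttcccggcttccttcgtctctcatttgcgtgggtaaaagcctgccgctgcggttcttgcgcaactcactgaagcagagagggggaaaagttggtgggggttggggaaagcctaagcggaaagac

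The terminal synthases had separate distributions. *Ptges*, the microsomal prostaglandin E synthase, was detected in fibroblasts at 38.4 CPM in control and 25.9 in SM22-SmoM2 and in mural cells at 26.1 and 20.6 CPM. Endothelial, Schwann and immune cells were at 10.9 CPM or below. *Ptgis*, the prostacyclin synthase, was almost wholly a fibroblast transcript, with 97.1% of its control UMIs and 95.3% of its SM22-SmoM2 UMIs there, and endothelial cells, a textbook source of prostacyclin, held only 1.83 and 2.10 CPM. A gene annotated on the opposite strand, *Gm14291*, overlaps *Ptgis*, and whether the counting used strand is not given in the sources used here.

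*Ptgds*, the lipocalin-type prostaglandin D synthase, was detected in 27 cells, and 88 of its 106 UMIs lay in 12 cells that also held at least 3 of 6 melanocyte markers (*Dct*, *Pmel*, *Mlana*, *Tyrp1*, *Tyr* and *Mitf*). Of the 106 UMIs, 67 lay in 5 of these cells. All 12 cells with that many melanocyte markers held *Ptgds*. In control, 36 of 37 UMIs of the Schwann cells and 17 of 20 UMIs of the fibroblasts were in such cells, 4 of them among Schwann cells and 1 among fibroblasts. Its lineage values therefore rest on a handful of barcodes.

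*Hpgd* encodes 15-hydroxyprostaglandin dehydrogenase, which starts the breakdown of prostaglandin E2. Fibroblasts held it at 51.9 CPM in control and 44.3 in SM22-SmoM2, followed by immune cells at 15.3 and 38.3 CPM and mural cells at 11.2 and 5.61 CPM. Endothelial and Schwann cells were at 1.34 CPM or below. *Akr1c18*, a reductase known for inactivating progesterone and for acting on prostaglandins, was a rare transcript of control cells: 189 of its 190 UMIs were in control, 106 of them in 28 fibroblasts and 79 in 2 of 16 keratinocyte-like cells. It shares a gene cluster with close homologues, so reads could be split between them by the authors' counting.

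Of the prostaglandin E2 receptors, *Ptger3* (EP3) was mostly a fibroblast transcript, at 13.2 CPM in control and 24.5 in SM22-SmoM2, with 2.79 CPM or less in mural, endothelial, Schwann and immune cells. *Ptger4* (EP4) was broader, at 18.7 and 17.9 CPM in fibroblasts, 29.2 and 18.7 CPM in mural cells and 13.9 and 13.7 CPM in immune cells. Endothelial and Schwann cells held 3.36 to 3.96 CPM of *Ptger4*. The gene *Ttc33* overlaps *Ptger4* on the opposite strand, with the same limit on the counting.

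**Figure D1:**
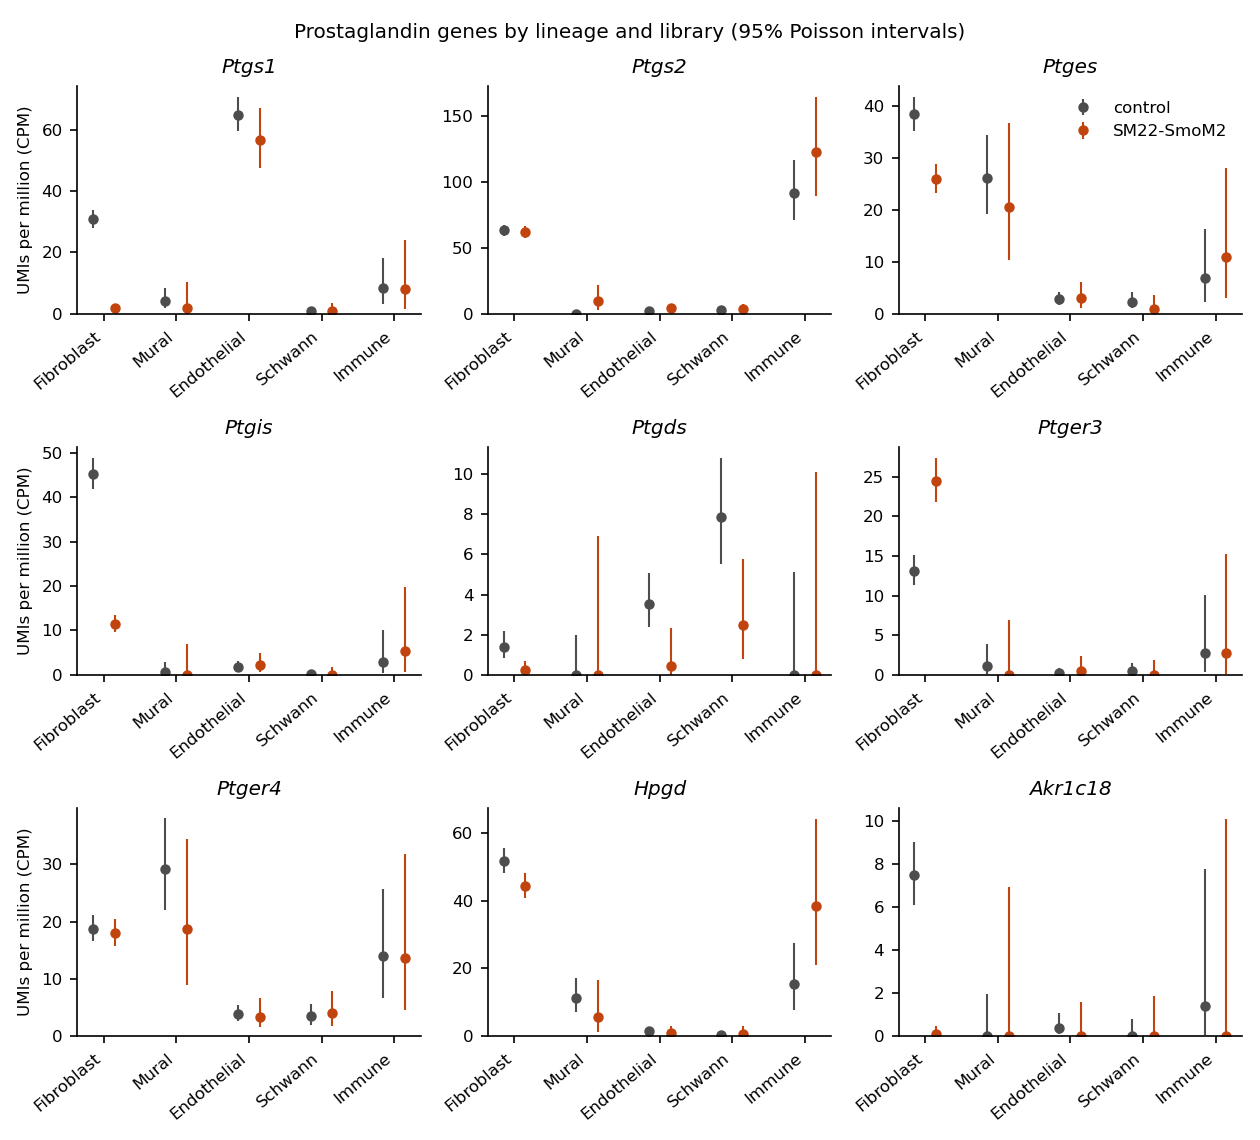
Levels of the 9 genes (CPM, linear axes that differ between panels) in 5 lineages, with control in grey and SM22-SmoM2 in orange and bars for 95% Poisson counting intervals. *Ptgs1* is highest in endothelial cells in both libraries and *Ptgis* and *Ptger3* stand above the other lineages in fibroblasts, at 45.2 and 11.4 CPM and at 13.2 and 24.5 CPM.

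In the plot of levels by lineage, 5 of the 9 genes were highest in fibroblasts in each library (*Ptges*, *Ptgis*, *Ptger3*, *Hpgd* and *Akr1c18*, the last from 1 UMI in SM22-SmoM2). The share of all genes that were highest in fibroblasts was not computed, so this count has no background beside it. Fibroblast and mural intervals of *Ptges* overlapped in SM22-SmoM2, and those of *Ptger4* overlapped between fibroblasts, mural cells and immune cells there. To set detection beside depth, every cell was thinned to 2500 UMIs, which no cell fell short of, the lowest holding 2538. *Ptgs2* was then detected in 9.12% of control and 8.74% of SM22-SmoM2 fibroblasts, against 0.589% and 1.02% of Schwann cells, whose median depth was 5956 and 5545.5 UMIs before thinning and that of fibroblasts 12471 and 10954. Without thinning the fibroblast shares were 20.1% and 18.6%. *Ptgs1* was detected in 6.29% of control fibroblasts (4.93 to 7.89%) and in 0.455% of SM22-SmoM2 fibroblasts (0.148 to 1.06%), beside 0.147% of control Schwann cells (1 cell, 0.00373 to 0.818%). The intervals of SM22-SmoM2 fibroblasts and control Schwann cells overlapped, so *Ptgs1* in SM22-SmoM2 fibroblasts was not told from background at this depth. Unthinned shares were 15.1% and 1.91%.

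Fibroblasts of the genotypes were compared to ask which steps of the pathway differ under forced Hh activation. The cyclooxygenases split: *Ptgs1* was 15.4-fold lower in SM22-SmoM2, whereas the sums of *Ptgs2* did not differ beyond counting error. *Ptgis* and *Akr1c18* were also lower in SM22-SmoM2, and no member was counted as higher. A gene is counted as higher or lower at a ratio of at least 2 with a counting interval that leaves out no difference and at least 10 UMIs in both libraries together. All 9 genes had that many UMIs. By this rule 4 of the 9 genes were lower, where 5.96% of the 14240 genes measured were, and 0 were higher, where 6.17% were. The median log2 ratio of the 9 genes was -0.57, and that of all genes -0.06.

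*Ptgs1* counted 439 UMIs in control fibroblasts and 25 in SM22-SmoM2 fibroblasts, a log2 ratio of -3.95 (-4.59 to -3.37). From the lowest ratio upwards it ranked 30 of 14240 genes, with counts of 0 replaced by 3 UMIs. *Ptgs2* counted 901 and 773 UMIs, a log2 ratio of -0.04 (-0.18 to 0.11). The *Ptgs2* sums thus differed by less than their counting error, whereas those of *Ptgs1* did not.

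The synthases ranged widely. *Ptges* counted 546 and 324 UMIs, a log2 ratio of -0.57 (-0.77 to -0.37), which did not reach a 2-fold difference. *Ptgis* was at 45.2 CPM in control and 11.4 in SM22-SmoM2, a log2 ratio of -1.98 (-2.25 to -1.72). *Ptgds* held 20 and 3 UMIs, a log2 ratio of -2.55 (-4.94 to -0.80), but outside the melanocyte-marker cell described above both libraries held 3 UMIs.

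Among breakdown and receptor genes *Akr1c18* was lower, and the others stayed under a 2-fold difference. *Hpgd* was at 51.9 CPM in control and 44.3 in SM22-SmoM2, a log2 ratio of -0.23 (-0.39 to -0.06). *Akr1c18* counted 106 UMIs in control and 1 UMI in SM22-SmoM2, a log2 ratio of -6.54 (-11.86 to -4.03). *Ptger3* was the 1 member with more UMIs in SM22-SmoM2, 306 against 187, and its log2 ratio of 0.90 (0.63 to 1.17) stayed under a 2-fold difference. *Ptger4* did not differ beyond counting error, at -0.06 (-0.32 to 0.20). Of the immediate early genes 7 of 22 were higher in SM22-SmoM2 fibroblasts, of the oxidative stress genes 3 of 9 and of the heat shock genes 0 of 8. Their part in these ratios was not tested.

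**Figure D2:**
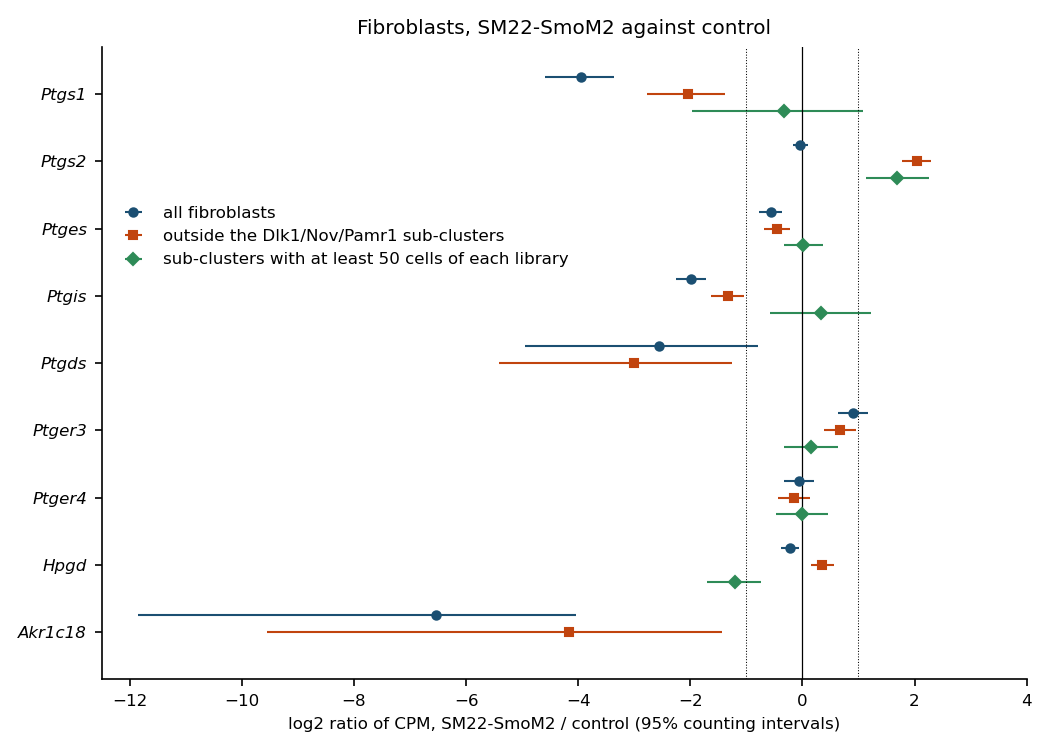
Log2 ratio of CPM in fibroblasts, SM22-SmoM2 against control, for each gene (points) with 95% counting intervals (bars), in all fibroblasts (blue), outside the *Dlk1*, *Nov* and *Pamr1* sub-clusters (orange) and in the 2 sub-clusters to which both libraries gave 50 cells or more (green). Dotted lines mark a 2-fold difference. *Ptgs1* moves from -3.95 to -2.05 and -0.33 across the 3 sets, and *Ptgs2* from -0.04 to 2.04 and 1.69.

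Male and female cells were present in both pools in different shares, so the sexes were read separately. Control fibroblasts held 647 cells called male and 223 called female, and SM22-SmoM2 fibroblasts 816 and 48. In male cells *Ptgs1* was at 40.2 CPM in control and 1.93 in SM22-SmoM2, while in female cells it was at 4.61 and 4.32 CPM (12 and 2 UMIs). *Ptgis* was at 56.9 and 12.0 CPM in male cells and at 3.46 and 2.16 CPM in female cells. Both genes were thus low in the female cells of either genotype. *Hpgd* was at 58.8 and 41.3 CPM in male cells and at 35.0 and 188 CPM in female cells. Of the 48 female SM22-SmoM2 cells 23 were in the sub-cluster led by *Penk*, described below, and of the 816 male ones 112. *Hpgd* was at 178 CPM in the SM22-SmoM2 cells of that sub-cluster. *Ptgs2* was at 86.1 and 59.7 CPM in male cells and at 14.2 and 36.7 CPM in female cells, the last from 17 UMIs in 3 cells. The number of mice behind each sex is not given in the sources used here, and sex and sub-cluster cannot be told apart for most of these cells.

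Fibroblasts were divided further into sub-clusters, with the 9 genes, *Areg*, *Agtr2* and the other pathway genes left out of the clustering. The immediate early, oxidative stress and marker genes were not left out, so their values between sub-clusters describe how the sub-clusters were formed as well. The 2 sub-clusters led by *Dlk1*, *Nov* and *Pamr1* held 288 of the 1097 control fibroblasts (26.3%) and 5 SM22-SmoM2 cells. They held 82.2% of the *Ptgs1* UMIs of control fibroblasts (78.3 to 85.7%), 83.7% of those of *Ptgs2* (81.1 to 86.0%), 86.8% of those of *Akr1c18*, 56.1% of those of *Ptgis* and 54.4% of those of *Hpgd*, from 31.3% of all fibroblast UMIs. *Ptges* (36.8%), *Ptger4* (26.3%) and *Ptger3* (19.3%) were nearer to that share. The control sub-cluster led by *Fbln7*, *Eln* and *Angptl1* (83 cells) also had *Dlk1*, *Nov* and *Pamr1* among its leading genes. It held *Ptgs1* at 1.19 CPM, *Ptgs2* at 4.76 CPM and 0 UMIs of *Akr1c18*, so these markers alone did not go with high cyclooxygenase transcript. That sub-cluster is counted among the other control fibroblasts below.

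Against the other control fibroblasts, *Ptgs1* was at 81.2 and 7.99 CPM, a log2 ratio of 3.35 (2.99 to 3.72), and *Ptgs2* at 170 and 15 CPM, a ratio of 3.49 (3.24 to 3.76). *Ptgis* was at 81.2 and 28.9 CPM (1.49), *Hpgd* at 90.2 and 34.4 CPM (1.39) and *Akr1c18* at 20.7 and 1.43 CPM (3.85). By the rule above 5 of 9 genes were higher, where 5.94% of all genes were, and *Ptgds* was the 1 lower, where 8.79% were. Of the 20 *Ptgds* UMIs of control fibroblasts, 17 were in the 1 cell with melanocyte markers, outside these sub-clusters. Within the pair, *Ptgs1* was higher in the sub-cluster led by *Nov* (118 against 50.9 CPM) and *Ptgs2* in the one led by *Dlk1* (248 against 74.1 CPM). *Ptgis* (121 against 48.1 CPM) and *Hpgd* (120 against 65.7 CPM) were also higher in the *Nov*-led one, and the *Hpgd* of the *Dlk1*-led one lay beside the 66.5 CPM of the control sub-cluster led by *Mmp3* and *Mmp13*. Of the 92 *Akr1c18* UMIs of the pair, 90 were in the *Nov*-led one (44.8 CPM), and the *Dlk1*-led one was at 0.82 CPM, under the 1.43 CPM of the other control fibroblasts.

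These cells were deeper (median 14950.5 against 11891 UMIs), and 226 of them were called male and 7 female. Of the list of genes that induce or are induced with *Ptgs2*, 10 of 14 were higher, with the neutrophil chemokines *Cxcl2* at 1342 and 153 CPM and *Cxcl1* at 3335 and 506 CPM. Of the immediate early genes, which also respond to tissue dissociation, 9 of 21 were higher, among them *Fosl1* at 45.0 and 6.45 CPM. Immune markers summed to 275 CPM against 76.3 CPM, none at 0, with 4 of 9 higher, led by the antigen presentation genes *H2-Aa* and *Cd74*, and the macrophage receptor gene *Csf1r* lower, beside 51723 CPM in control immune cells. Their part in these values was not tested.

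A second peak of *Ptgs2* lay in SM22-SmoM2. The sub-cluster led by *Areg*, *Mmp13* and *Hmox1* held 196 of 1099 SM22-SmoM2 fibroblasts (17.8%) and 7 control cells, and 73.6% of the *Ptgs2* UMIs (70.4 to 76.7%) but 8.84% of the *Hpgd* UMIs. *Ptgs2* was at 227 CPM inside and 20.4 CPM outside, a log2 ratio of 3.48 (3.24 to 3.71). *Hpgd* was at 19.6 and 50.6 CPM, a ratio of -1.37 (-1.82 to -0.95). Most of the outside *Hpgd* lay in 1 sub-cluster, led by *Penk* and described below, and without it *Hpgd* was at 24.6 CPM outside, a ratio of -0.33 (-0.81 to 0.13), which did not differ beyond counting error, while *Ptgs2* stayed at 3.24. Of the 7 genes with enough UMIs, *Ptgs2* was the 1 higher, where 4.35% of genes were, and *Hpgd* the 1 lower, a share near the 13.1% of all genes that were. *Ptges*, *Ptgis*, *Ptger3* and *Ptger4* had ratios between -0.04 and 0.16.

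The oxidative stress genes stood out beside *Ptgs2* there, with 6 of 9 higher, among them *Srxn1* at 464 and 29.4 CPM and the haem oxygenase gene *Hmox1* at 965 and 240 CPM, and 8 of 21 immediate early genes were higher, led by *Nr4a2* at 369 and 88.1 CPM. Of the list of genes that induce or are induced with *Ptgs2*, 9 of 13 were higher. They included *Areg*, by which this sub-cluster was picked, and the cytokine gene *Il6* at 165 and 31.8 CPM. Median depth was 12487.5 against 10383 UMIs, immune markers summed to 92.2 against 37.2 CPM, and Schwann markers to 81.4 against 37.9 CPM. Their part was not tested.

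The *Areg*-led SM22-SmoM2 cells and the pooled *Dlk1*, *Nov* and *Pamr1* control cells differed in several other members. Setting the *Areg*-led SM22-SmoM2 cells beside the *Dlk1*, *Nov* and *Pamr1* control cells, *Ptgs2* was at 227 and 170 CPM, a log2 ratio of 0.42 (0.26 to 0.58). *Ptgs1* was at 3.19 and 81.2 CPM (-4.67), *Ptgis* at 11.6 and 81.2 CPM (-2.81) and *Hpgd* at 19.6 and 90.2 CPM (-2.21). *Ptger3* was at 23.9 and 8.10 CPM (1.56). *Ptges* and *Ptger4* stayed under a 2-fold difference. By the rule above, 4 of the 8 genes with enough UMIs were lower, *Akr1c18* among them, where 16.2% of all genes were. *Ptger3* was the 1 higher, where 9.09% were. The control *Ptgs2* peak itself was the *Dlk1*-led sub-cluster, at 248 CPM, above the 227 CPM of the *Areg*-led cells with overlapping intervals. It held *Ptgs1* at 50.9 CPM, *Ptgis* at 48.1, *Hpgd* at 65.7, *Ptger3* at 6.16 and *Akr1c18* at 0.82 CPM. Ratios against it alone were not taken. Library and sub-cluster cannot be told apart in these comparisons.

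The highest levels of some members lay elsewhere. *Ptgis* reached 208 CPM in the control sub-cluster led by *Fbln7*, *Eln* and *Angptl1* (83 cells), in which *Agtr2* was at 231 CPM and *Ptgs1* at 1.19 CPM. *Hpgd* reached 178 CPM in the SM22-SmoM2 sub-cluster led by *Penk*, *Lepr* and *Il33* (171 cells), where *Ptgs2* was at 2.96 CPM. *Hpgd* is itself among the leading genes there, although it took no part in the clustering. *Ptger3* and *Ptger4* were both highest in SM22-SmoM2 cells led by the genes a, *Ibsp* and *Cd24a* (46 cells), at 60.7 and 54.3 CPM. These values rest on 19 and 17 UMIs at a median depth of 4530.5 UMIs. The *Ptger3* interval overlapped that of the *Penk*-led sub-cluster (40.2 CPM). The *Ptger4* interval overlapped that of control cells in the sub-cluster led by *Mest* (32.6 CPM), so neither rank is settled beyond counting error. *Ptges* varied least, from 12.5 to 55.1 CPM over the sub-clusters with at least 20 cells of a library.

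**Figure D3:**
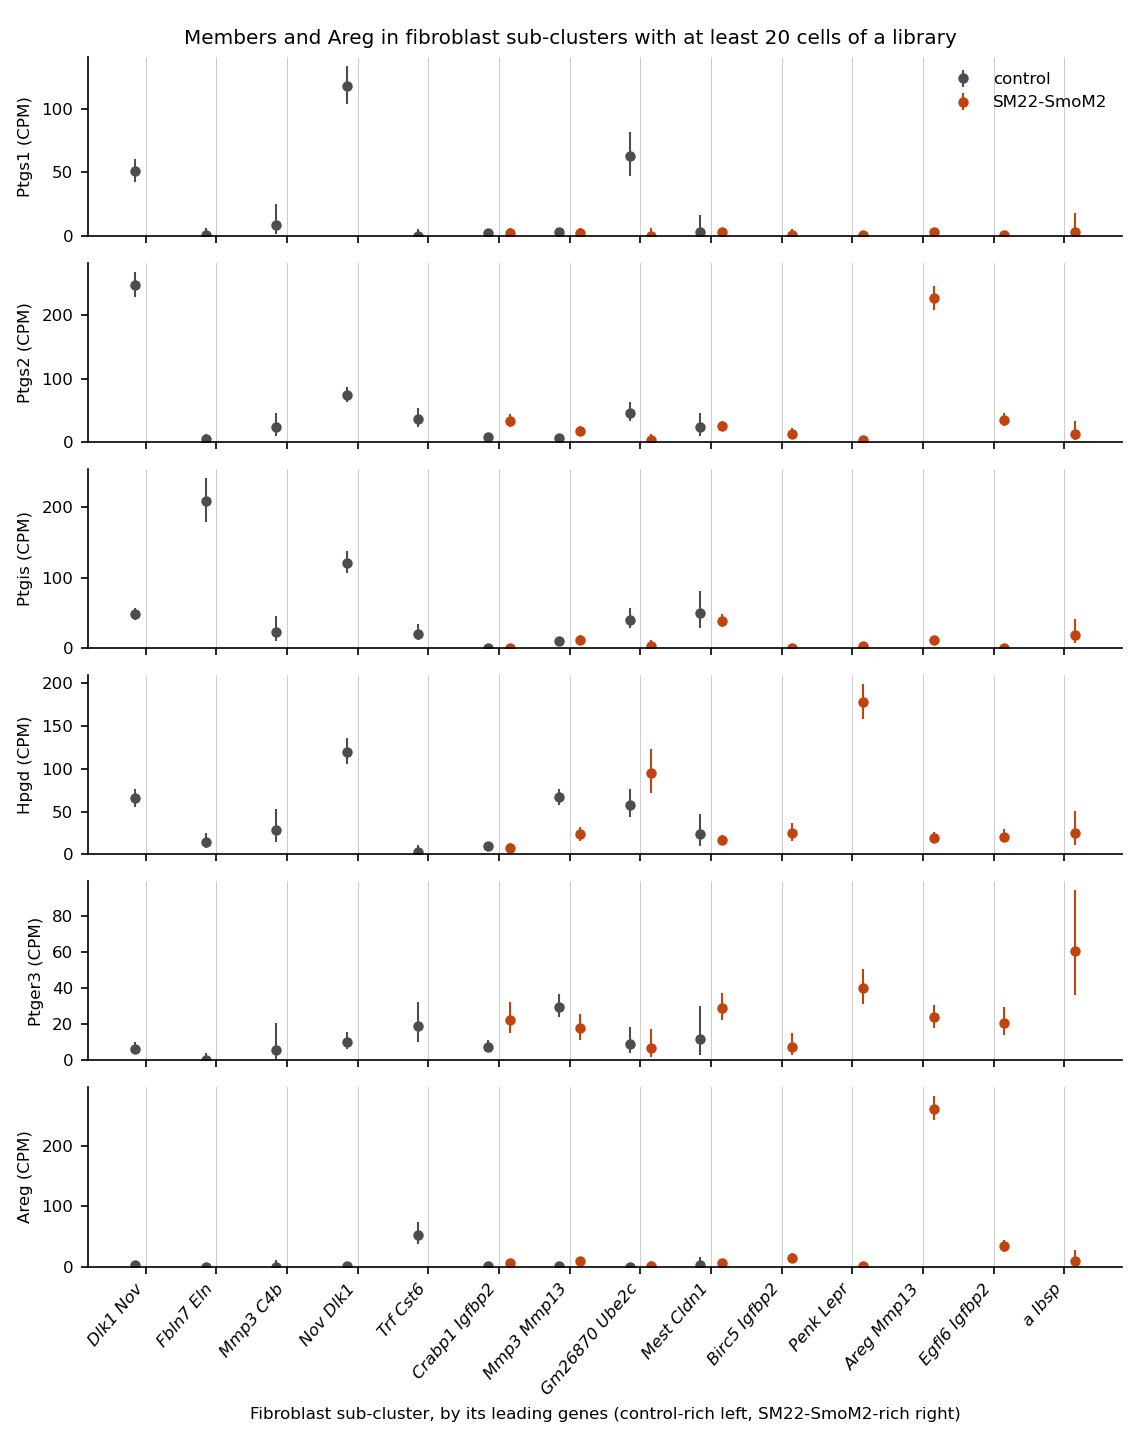
Levels (CPM, linear axes) of *Ptgs1*, *Ptgs2*, *Ptgis*, *Hpgd*, *Ptger3* and *Areg* in fibroblast sub-clusters with at least 20 cells of a library, named by their first 2 leading genes and ordered from control-rich to SM22-SmoM2-rich, with 95% Poisson counting intervals. *Ptgs2* has 1 high sub-cluster in each library, at 248 and 227 CPM, and *Areg* is highest at the SM22-SmoM2 one (262 CPM), followed by a control sub-cluster led by *Trf* (53.0 CPM, 32 of its 36 UMIs in 1 cell).

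In the plot by sub-cluster, the 2 that held most of the *Ptgs1* and *Ptgs2* UMIs of control had 5 SM22-SmoM2 cells, so the genotype values depend on which cells are compared. In the 2 sub-clusters to which both libraries gave 50 cells or more (511 control and 226 SM22-SmoM2 cells, led by *Crabp1* and *Igfbp2* and by *Mmp3* and *Mmp13*), *Ptgs1* counted 17 and 6 UMIs, a log2 ratio of -0.33 (-1.96 to 1.08), and *Ptgis* was at 5.10 and 6.45 CPM (0.34, -0.58 to 1.22). Neither was counted as lower in these 2 sub-clusters. *Ptgs2* was at 7.65 CPM in control and 24.7 in SM22-SmoM2 (48 and 69 UMIs), a ratio of 1.69 (1.14 to 2.26), and *Hpgd* at 36.3 and 15.8 CPM, a ratio of -1.20 (-1.70 to -0.73). Of 7 genes, 1 was higher, where 2.23% of genes were, and 1 lower, where 1.97% were. Cells called female were 168 of the control and 10 of the SM22-SmoM2 cells in these sub-clusters.

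A smaller shared sub-cluster went the other way. It was led by *Gm26870*, *Ube2c* and *Birc5*, the last 2 known from dividing cells, and held 46 control and 42 SM22-SmoM2 cells. *Ptgs1* counted 54 UMIs there in control, in 14 cells, and 0 in SM22-SmoM2, or 62.8 CPM in control, the second highest level among the control sub-clusters shown. *Ptgs2* was at 46.5 and 3.39 CPM (-3.78, -6.87 to -1.83) and *Ptgis* at 40.7 and 3.39 CPM (-3.59, -6.69 to -1.63). *Hpgd* was at 58.2 and 94.9 CPM (0.71, 0.13 to 1.29). With the limit set at 20 cells of each library, which adds this sub-cluster and the one led by *Mest*, *Ptgs1* was at 9.64 and 2.19 CPM, a log2 ratio of -2.14 (-3.15 to -1.25), and *Ptgs2* at 12.9 and 23.0 CPM, a ratio of 0.84 (0.45 to 1.24). *Ptgis* was at 0.71 (0.28 to 1.15) and *Hpgd* at -0.64 (-0.94 to -0.34). The *Ptgis* ratio is of pooled sums, to which the *Mest*-led sub-cluster gave 34 control and 178 SM22-SmoM2 cells. Within that sub-cluster *Ptgis* was at 50.4 CPM in control and 38.6 in SM22-SmoM2. In the one led by *Mmp3* and *Mmp13* it was at 10.6 and 12.3 CPM, and the *Crabp1*-led one held 1 and 0 UMIs. The lower *Ptgs1* and the 2-fold higher *Ptgs2* of shared sub-clusters thus depended on whether the *Gm26870*- and *Mest*-led ones were included.

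Without the *Dlk1*, *Nov* and *Pamr1* sub-clusters, *Ptgs2* was at 15 CPM in control and 61.8 in SM22-SmoM2, a log2 ratio of 2.04 (1.78 to 2.30). *Ptgs1* was at -2.05 (-2.77 to -1.37), *Ptgis* at -1.33 and *Akr1c18* at -4.16 (14 and 1 UMIs). Single sub-clusters carried the values of *Ptgs1* and *Ptgis*. Without the one led by *Gm26870* as well, *Ptgs1* counted 24 UMIs in each library, a ratio of -0.41 (-1.29 to 0.47), and without the one led by *Fbln7*, which had no SM22-SmoM2 cell, *Ptgis* was at 12.0 and 11.5 CPM, a ratio of -0.06 (-0.43 to 0.31). *Ptgs2* stayed at least 2-fold higher in both cases, at 2.43 and 1.95. Both kept the *Areg*-led sub-cluster, which had 7 control cells and held 569 of the 773 *Ptgs2* UMIs of SM22-SmoM2 fibroblasts. Outside it, SM22-SmoM2 fibroblasts held *Ptgs2* at 20.4 CPM, beside the 15 CPM of control given here. A ratio with that sub-cluster left out as well was not taken. The near-equal sums of *Ptgs2* over all fibroblasts thus covered unlike distributions.

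Detection of *Areg* asked whether the epidermal growth factor ligand marks the cells with cyclooxygenase transcript. In SM22-SmoM2, 104 fibroblasts held at least 1 *Areg* UMI and 995 held none, with median depths of 12716.5 and 10562 UMIs. *Ptgs2* was at 212 CPM with *Areg* and 42.2 CPM without (307 and 466 UMIs), a log2 ratio of 2.33 (2.12 to 2.54). Of the 7 genes with enough UMIs 2 were counted as higher, where 2.99% of genes were, and 0 as lower, where 5.11% were. The other one was *Ptgs1*, with 7 and 18 UMIs, a ratio of 1.57 (0.07 to 2.90), at a level not told from background above, and it was not counted as higher with cells thinned. *Hpgd* was at 24.2 and 47.0 CPM, a ratio of -0.96 (-1.49 to -0.46), and *Ptges*, *Ptgis*, *Ptger3* and *Ptger4* lay between -0.07 and 0.04.

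The *Ptgs2* difference was smaller inside and outside the *Areg*-led sub-cluster, each taken alone. Inside the *Areg*-led sub-cluster, *Ptgs2* was at 291 CPM in 67 cells with *Areg* and 187 CPM in 129 cells without, a log2 ratio of 0.64 (0.40 to 0.88). Outside it, *Ptgs2* was at 55.7 and 18.6 CPM, a ratio of 1.58 (0.94 to 2.17). Only 17 control fibroblasts held *Areg*, and their *Ptgs2* was at 136 CPM against 62.2 CPM in 1080 without (32 UMIs in 8 cells), a ratio of 1.13 (0.57 to 1.63). Of these 32 UMIs 11 were in 1 cell, and without it the level was 93.7 CPM. Among other genes of the pathway, the prostacyclin receptor gene *Ptgir* was at 18.7 CPM with *Areg* and 7.24 CPM without in SM22-SmoM2. Of the oxidative stress genes 5 of 9 were higher with *Areg* and of the immediate early genes 4 of 21.

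Short stretches around the starts of *Ptgs2* and *Areg* are given because *Ptgs2* was higher in SM22-SmoM2 cells with *Areg*, with matches to the cyclic AMP response element and the E-box in capitals (RefSeq, GRCm38.p6, plus strand). The *Ptgs2* stretch is chr1:150100031-150100060 and the *Areg* stretch is chr5:91139527-91139556.
Ptgs2: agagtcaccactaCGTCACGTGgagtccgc
Areg: gggctggtccgTGACGTCAcgggcggtggc

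The motifs were searched on both strands from 250 bases before to 50 bases after the annotated start, from which all positions here are counted. In *Ptgs2* the half-site TGACG was found on the minus strand at bases 14 to 18 after the start, overlapping CACGTG at 17 to 22. In *Areg* the full element TGACGTCA, which holds TGACG on each strand, was found at -61 to -54, and TATAAA at -31 to -26. A further TGACG lay on the minus strand of *Areg* at -115 to -111. Of 32851 such windows, 20.8% held TGACG, 1.79% TGACGTCA, 7.15% CACGTG, 13.6% TATAAA, 7.81% the AP-1 motif TGANTCA and 0.253% the GLI motif GACCACCCA. No window of the 8 members with one held the GLI motif, *Ptgds* held TGANTCA and *Hpgd* held TATAAA. These are matches of letters in a window, and whether any is a working site was not tested.

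Detection of *Agtr2* went with a different member, and largely with 1 sub-cluster. The *Fbln7*-led sub-cluster held 36 of the control fibroblasts with *Agtr2* and 76.1% of their *Agtr2* UMIs. Ratios inside and outside it were not taken. In control, 61 fibroblasts held at least 1 *Agtr2* UMI and 1036 held none, with like median depths of 12534 and 12464 UMIs. *Ptgis* was at 165 CPM with *Agtr2* and 37.8 CPM without (137 and 506 UMIs), a log2 ratio of 2.13 (1.84 to 2.40), and was detected in 41 of the 61 cells. *Ptger4* was at 7.23 and 19.4 CPM (6 and 260 UMIs), a ratio of -1.42 (-2.88 to -0.28), and *Akr1c18* at 1 and 105 UMIs (-2.70, -8.02 to -0.19). Of the 9 genes 1 was higher, where 3.48% of genes were, and 2 were lower, where 2.74% were. *Ptgs1* was at 31.4 and 30.9 CPM and *Ptges* at 38.6 and 38.4 CPM, with log2 ratios of 0.02 and 0.01. *Ptgs2*, at 84.4 and 62.1 CPM, had 70 UMIs in 9 of the cells with *Agtr2*. In SM22-SmoM2 only 12 fibroblasts held *Agtr2*, with 5 *Ptgis* UMIs among them, or 40.7 CPM against 11.2 CPM.

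**Figure D4:**
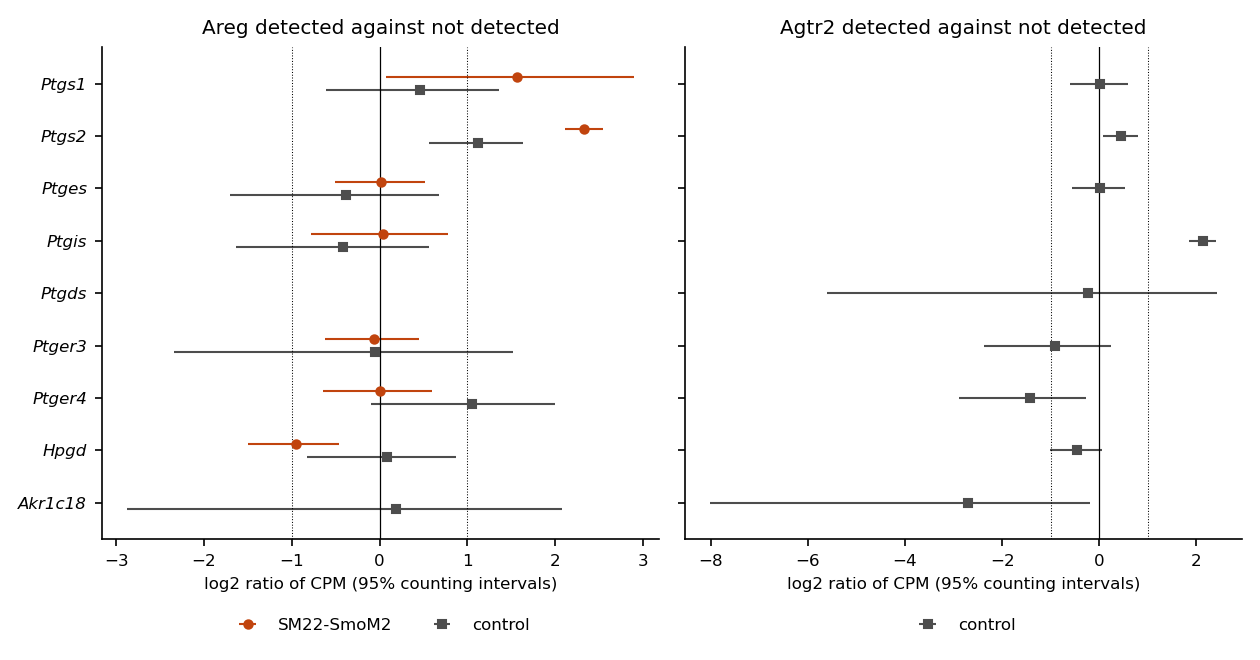
Log2 ratio of CPM between fibroblasts with and without a detected UMI of *Areg* (left, control grey and SM22-SmoM2 orange) and *Agtr2* (right, control) for each gene, with 95% counting intervals as bars and dotted lines at a 2-fold difference. *Ptgs2* stands at 2.33 for *Areg* in SM22-SmoM2 and *Ptgis* at 2.13 for *Agtr2* in control, and genes without a point had too few UMIs.

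In the plot of both gates, *Ptgs2* had the highest ratio for *Areg* in each library and *Ptgis* the highest for *Agtr2* in control. They did not stand wholly apart. For *Areg*, the *Ptgs1* interval of SM22-SmoM2 spanned that of *Ptgs2*, and in control *Ptger4* (9 UMIs with *Areg*) lay close to *Ptgs2*. The control order rests on few cells, with 11 of the 32 *Ptgs2* UMIs in 1 cell. For *Agtr2*, *Akr1c18* (1 UMI with *Agtr2*) lay further from 0 on the lower side. The Hh targets gave a further division of the same cells, chosen after values had been seen. In control, *Ptgs1* was at 6.33 CPM in 156 fibroblasts with *Ptch1* or *Gli1* and 35.0 CPM in 941 without, a log2 ratio of -2.47 (-3.39 to -1.68). *Ptgs2* was at 28.2 and 69.3 CPM (-1.30) and *Akr1c18* at 2.43 and 8.31 CPM (-1.77). These 3 of 9 were lower, where 2.11% of genes were. In SM22-SmoM2, with 709 and 390 cells, the order of *Ptgs2* turned, at 68.5 and 48.2 CPM (0.51), and *Hpgd* was at 54.7 and 23.1 CPM (1.24, 0.92 to 1.58), the 1 of 7 that was higher, where 4.81% of genes were.

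Cells of 1 library that held a member were also compared with the fibroblasts that did not. In control, 166 fibroblasts held *Ptgs1* and 220 held *Ptgs2*, and 98 held both, so that *Ptgs2* was detected in 59.0% of cells with *Ptgs1* and 13.1% of cells without. Thinned to 2500 UMIs, 69 and 100 cells remained and 23 held both. The gene with the highest ratio in *Ptgs1* cells was *Akr1c18* (4.88), and in *Ptgs2* cells the chemokine gene *Cxcl3* (5.86). In SM22-SmoM2 the highest in *Ptgs2* cells were the transporter gene *Slco4a1* (2.81) and *Tac1* (2.74), the precursor gene of substance P, with *Areg* at rank 5 (2.36). Cells with a detected gene were deeper than those without, as in control for *Ptgs1* at medians of 16791 and 11865 UMIs.

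In endothelial cells the genotypes differed little. *Ptgs1* had a log2 ratio of -0.19 (-0.48 to 0.08) between SM22-SmoM2 and control, and was detected after thinning in 13.3% and 15% of cells. Of the 7 members with enough UMIs there, 1 was lower, where 1.54% of genes were. This was *Ptgds* (29 and 1 UMIs), with 19 of the control UMIs in 4 cells with melanocyte markers. In immune cells *Ptgs2* had a ratio of 0.42 (-0.16 to 0.99), and in mural cells *Ptges* and *Ptger4* had ratios of -0.34 (-1.43 to 0.62) and -0.64 (-1.78 to 0.34). These 3 intervals span both no difference and a 1.5-fold difference. *Hpgd* in immune cells counted 11 and 14 UMIs (1.32, 0.08 to 2.60), the 1 of 3 members with enough UMIs that was higher there, where 3.05% of genes were. Fibroblast markers in these immune cells summed to 9260 CPM in the SM22-SmoM2 library against 5018 in the control one, none of 10 at 0, and their part in the *Hpgd* value was not tested. The immune cells also differed between libraries in their mix of clusters and in sex, as given further below.

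The other genes of the pathway filled in the remaining steps. Phospholipases that release arachidonate gave no gene past a 2-fold difference in fibroblasts among the 8 measured, with *Pla2g4a*, the cytosolic enzyme, at 20.1 CPM in control and 11.3 in SM22-SmoM2 (-0.83). Of 9 further terminal synthases and reductases 1 was higher, the carbonyl reductase gene *Cbr3*, at 18.2 and 47.7 CPM. Synthases known from blood cells were highest in immune cells among the 5 lineages above: the haematopoietic prostaglandin D synthase *Hpgds* was at 174 and 293 CPM there and thromboxane synthase *Tbxas1* at 19.5 and 49.2 CPM, each at 1.87 CPM or below in fibroblasts, mural, endothelial and Schwann cells.

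Of 7 other receptor genes with enough UMIs in fibroblasts, lipid-binding nuclear receptors included, 2 were higher in SM22-SmoM2. The prostacyclin receptor gene *Ptgir* was at 3.10 and 8.56 CPM (1.47) and the thromboxane receptor gene *Tbxa2r* at 7.39 and 19.2 CPM (1.38). The prostaglandin F receptor gene *Ptgfr* was at 15.5 and 8.08 CPM (-0.94). Outside fibroblasts *Ptgir* was highest in mural cells, at 31.4 and 29.9 CPM. *Ptger2*, the other cyclic AMP-coupled receptor of prostaglandin E2, counted 6 UMIs over all lineages, all in control, and the prostaglandin D2 receptor genes *Ptgdr* and *Ptgdr2* counted 1 and 0.

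The uptake transporter *Slco2a1*, which brings prostaglandins to the breakdown enzyme inside cells, was at 123 and 124 CPM in endothelial cells and at 5.21 and 17.9 CPM in fibroblasts (1.78, 1.40 to 2.18), the 1 of 5 transport and further breakdown genes that was higher. In the lipoxygenase branch, which makes leukotrienes from the same substrate, 2 of 5 genes were lower in SM22-SmoM2 fibroblasts, *Alox5ap* at 5.70 and 2.32 CPM and *Ltc4s* at 3.03 and 1.36 CPM. Both are known as leukocyte genes, and immune markers summed to 138 CPM in control and 48.3 in SM22-SmoM2 fibroblasts, none at 0. Their part was not tested. Of the list of genes that induce or are induced with *Ptgs2*, 2 of 14 were higher. These were *Areg* at 3.73 and 61.0 CPM and *Lif* at 2.88 and 5.92 CPM. The list median was -0.04 against -0.06 over all genes.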

How the data were processed

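Dermal Tomato-positive cells were profiled by droplet single-cell RNA sequencing (10x Chromium), with 1 library per genotype. The values used were raw UMI counts per gene and cell, deposited as made by the authors with bcl2fastq and Cell Ranger against mm10 (versions, annotation and strand setting are not given in the sources used here). The matrices tie no barcode to a column, so barcodes shared by both libraries were not counted. No doublet caller was run, and a fibroblast sub-cluster with markers of another lineage (7 control cells and 1 SM22-SmoM2 cell) was left out.

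Cells with at least 200 genes and at most 10% mitochondrial UMIs were kept (2856 of 2878 and 1792 of 1802, with 2538 to 65167 UMIs each). They were clustered by k-means (20 clusters, and 15 within fibroblasts, 50 starts) on 20 principal components of 2000 variable genes without the 9 genes, Areg, Agtr2 and the other pathway lists, and named from marker lists. Sex was called per cell from sex-linked transcripts. UMIs were summed by class and library, with exact Poisson intervals for CPM, exact conditional intervals for ratios and Clopper-Pearson intervals for shares. In a ratio a count of 0 was replaced by 3 UMIs. There is no test across genotypes, and free RNA was not modelled.

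All 9 genes are reported. Of other lists, up to 3 genes per direction with at least 50 UMIs in fibroblasts and the most extreme ratios are named, with any gene a result turns on, and for each gene reported the 3 genes most like it by lineage and the 5 with the highest ratio beside it. The genes, lists and sub-cluster groups were chosen with earlier results of these data known. Alternatives covered mitochondrial limits, clustering, lineage naming, thinning, scaling, thresholds, sexes, mixed barcodes and sub-clusters. The software was Python 3.11.15, numpy 2.4.6, scipy 1.17.1, scikit-learn 1.9.0, pandas 2.3.3, leidenalg 0.10.2, matplotlib 3.10.9, R 4.3.3 and edgeR 4.0.16, the last for a scaling factor alone. The ratio code was tested on simulated data.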

Additional observations from a re-analysis of the deposited data

Results flagged for a closer look

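*Hpgd* had opposite directions in immune cells and fibroblasts. Its log2 ratio between SM22-SmoM2 and control was 1.32 in immune cells, from 14 UMIs in 33 cells against 11 UMIs in 82 cells, and -0.23 in fibroblasts. Fibroblast markers summed to 9260 CPM in these SM22-SmoM2 immune cells and 5018 CPM in the control ones, none of 10 at 0, and their part was not tested. The immune cluster led by *Lyz2*, *Cd74* and *C1qb* had 42 control and 29 SM22-SmoM2 cells. The one led by *Cd74*, *H2-Aa* and *H2-Ab1* had 40 and 4. Cells called male and female were 29 and 36 in control and 21 and 2 in SM22-SmoM2. The part of this mix was not tested either. Of all genes measured in immune cells 3.05% were higher in SM22-SmoM2. The difference between the lineages was not tested, since there was 1 library per genotype.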

How the results depend on the processing

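No paired analysis was possible because there was 1 library per genotype. Leaving out barcodes found in both libraries was not run, since no column carries a barcode. The sub-cluster restrictions of the genotype comparison, and the one outside the *Areg*-led sub-cluster, were chosen after seeing the data. In fibroblasts, 0 genes were higher and 4 lower in SM22-SmoM2, where 6.17% and 5.96% of all genes were. Higher genes numbered 2 in female cells and 1 each at a fold of 1.5, in the sub-clusters with 50 cells of each library and outside those led by *Nov*, *Dlk1* and *Pamr1*, also without the *Gm26870*- or *Fbln7*-led one. Lower genes numbered 2 in female cells, without the *Gm26870*-led one, and with 20 cells of each library, where *Ptgis* turned to 0.71 in pooled sums. They numbered 1 with 50 cells of each library, where *Ptgis* turned to 0.34. Of all genes, 2.23% were higher with 50 cells of each library and 6.54% outside the *Nov*, *Dlk1* and *Pamr1* ones. The lower shares were 2.54% with 20 cells, 1.97% with 50 cells and 5.72% without the *Gm26870*-led one. Such shares were not computed for sex, fold, thinning, Leiden clusters or separate parts. Over 20 settings *Ptgs1* ran from -4.38 to -0.10 and was counted as lower in 17, *Ptgs2* ran from -0.53 to 2.43 and was counted as higher in 5, and *Ptgis* ran from -2.25 to 0.71 and was counted as lower in 16. By *Areg* in SM22-SmoM2, *Ptgs2* (2.33) was at 2.10 with cells thinned to 2500 UMIs and 1.58 outside the *Areg*-led sub-cluster. Of the genes counted there (2 higher, 0 lower), 1 was higher when thinned, outside that sub-cluster and with *Areg* and the other genes read in separate random parts of the UMIs, and 1 was lower with Leiden clusters, in male cells, outside that sub-cluster and with separate parts. Outside the *Areg*-led sub-cluster 2.86% of all genes were higher with *Areg* and 1.6% lower. By *Agtr2* in control, *Ptgis* (2.13) was at 1.83 in male cells, and *Ptger4* turned to 0.56 when thinned. There 2 genes were higher and 0 lower when thinned, and 1 was lower with separate parts. Endothelial *Ptgs1* was at -0.56 in male cells. In SM22-SmoM2, 3 genes were highest in fibroblasts when thinned and 2 in female cells, against 5, with no share of all genes computed. Detection in control fibroblasts at 1500 UMIs and without thinning was 3.74% and 15.1% for *Ptgs1* and 6.75% and 20.1% for *Ptgs2*. In SM22-SmoM2 it was 1.91% without thinning for *Ptgs1*, and 5.28% and 18.6% for *Ptgs2*. The causes were not tested, beyond the fewer cells and UMIs that these settings keep. Lineages with few UMIs limit what the counts can show.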

Other observations

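The 16 keratinocyte-like control cells, too few for a lineage comparison, held *Akr1c18* at 260 CPM, all 79 UMIs in 2 cells. They also held *Ptges* at 39.6 CPM (12 UMIs in 6 cells) and *Ptgs1* at 33.0 CPM (10 UMIs in 5 cells). All 11 of their *Ptgds* UMIs were in 1 cell with melanocyte markers.

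Likeness across lineages was read as Pearson's r of log2(CPM + 10) over 10 sums, 5 lineages in each of 2 libraries, as a description in which the sums share their libraries and depth. The genes most like *Ptgs1* were *Pdgfd* (0.96), *St6galnac3* (0.96) and *Ret* (0.95). Those most like *Ptgs2* were *Glipr1* (0.97), *Ctsh* (0.97) and *Acp5* (0.96), and those most like *Ptges* the matrix and stromal genes *Aspn* (0.99), *Cd248* (0.98) and *Pcolce* (0.97). *Ptgis* was most like *Efemp1* (0.98), *Fam180a* (0.98) and *Wnt2* (0.97), and *Ptgds* like *Pgs1* (0.94) and the pigment genes *Dct* and *Pmel* (both 0.92). *Ptger3* was most like *Bcl11b* (0.98), *Ptger4* like *Parp8* (0.96), *Hpgd* like *Erp29* (0.97) and *Akr1c18* like *Cck* (0.99).

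Within SM22-SmoM2 fibroblasts, the genes with the highest log2 ratio beside *Ptgis* were *Lypd2* (3.92), *Msln* (3.89) and the Wnt inhibitor gene *Sfrp5* (3.69). Beside *Hpgd* they were *Tpd52l1* (2.63), the osteoblast factor gene *Sp7* (2.11) and *Alx4* (2.02). Beside *Ptger3* the highest was the elastin gene *Eln* (3.48), and beside *Ptger4* *Adamts20* (1.86) and *Bmp4* (1.69). In control fibroblasts *Areg* was the highest beside both *Ptger3* (3.80) and *Ptger4* (3.72), from 53 *Areg* UMIs in 17 cells. Of these UMIs 32 were in 1 cell, and only 3 of the 17 cells held *Ptger3* and 7 held *Ptger4*, so both ranks rest on very few cells. These ratios compare cells of 1 library and have no replicate check.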
